A study of Caenorhabditis elegans with 6 samples.

Results

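MicroRNA genes near binding sites of HIF-1, which in *C. elegans* switches on the response to low oxygen, are described here. The members are all 261 nuclear genes of biotype miRNA in Ensembl release 115 of the WBcel235 genome, of 46890 nuclear genes in all. A gene counted as near a site when the centre of a ChIP-seq peak lay within 500 bp of its annotated start, and 2000 bp was the wider setting. In *egl-9* mutants 8 of the 261 genes (3.07%, against 1.35% of all nuclear genes) had a peak within 500 bp, namely *mir-5549*, *mir-51*, *mir-80*, *mir-8186.1*, *mir-8186.2*, *mir-77*, *mir-54* and *mir-4929*. Another 14 had their nearest peak between 500 and 2000 bp away, which made 22 in all (8.43%, against 2.68% of all nuclear genes), and 239 had none within 2000 bp. In the control strain no microRNA gene had a peak within either distance, against 0.109% and 0.279% of all nuclear genes. The annotated gene is the hairpin precursor, so its start is not the start of the longer primary transcript. The study reports that most of its peaks lie in or near HOT sites, places where many other transcription factors also bind. It found little change in expression of genes nearest to HOT sites, and proposes that such places may give false ChIP-seq signals. Whether the peaks near microRNA genes are at HOT sites was not tested, nor was any effect on these genes.

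Chromatin of synchronised L4 hermaphrodites was immunoprecipitated for GFP, to which HIF-1 was fused. The control strain carried odIS131[hif-1::gfp] in the *hif-1(ia4)* null background, and the *egl-9* mutants carried the same transgene and the same *hif-1(ia4)* allele together with *egl-9(sa307)*. Per the study's methods both strains also carried *unc-119(ed3)*, and the transgene came from a genomic fosmid and was 1 integrated line. Precipitation was of the GFP fusion from whole animals, so no value below is for 1 tissue. There were 2 ChIP replicates and 1 input per genotype, and each genotype was represented by 1 peak list, with 604 nuclear peaks for *egl-9* mutants and 52 for the controls. Peak signal, the value of the peak caller, ranged from 54.4 to 838 with a median of 76.7 for *egl-9* mutants and from 141 to 671 for the controls. Neither the spread between replicates nor the depth behind a peak could be computed, and intervals given below are Wilson 95% intervals for shares, which cover the sampling of genes or peaks only.

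MicroRNAs are short RNAs cut from hairpin precursors by Drosha and Dicer. Loaded into an Argonaute protein, they pair with target mRNAs mainly through their seed, bases 2 to 8 from the 5′ end, and lower the output of those mRNAs. They were first found in *C. elegans*, where *lin-4* and *let-7* time larval development. The DNA motif of HIF-1 is the hypoxia response element (HRE), with the core ACGTG or GCGTG. EGL-9, a prolyl hydroxylase, uses oxygen to modify HIF-1, which is then degraded. In mammals some microRNA genes are known HIF targets, of which miR-210 is the best studied.

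The mature sequences show which of the genes near peaks share a seed. They were read by coordinates from the RefSeq WBcel235 genome at the arms annotated by Ensembl, written with T for U, and the seed is in capitals. The first set is the *mir-51* family, required redundantly for embryonic development, of which every gene lay within 2000 bp of a peak.
mir-51-5p: tACCCGTAgctcctatccatgtt
mir-52-5p: cACCCGTAcatatgtttccgtgct
mir-53-5p: cACCCGTAcatttgtttccgtgct
mir-54-3p: tACCCGTAatcttcataatccgag
mir-55-3p: tACCCGTAtaagtttctgctgag
mir-56-3p: tACCCGTAatgtttccgctgag
The second set holds the other genes with a peak within 500 bp. The arms of *mir-8186.1* and *mir-8186.2* are the same letters, because the genes are opposite strands of 1 nearly palindromic hairpin.
mir-80-3p: tGAGATCAttagttgaaagccga
mir-77-3p: tTCATCAGgccatagctgtcca
mir-4929-3p: aATGCACCacatcttacgctca
mir-5549-5p: cTTGTGAAattaacgtgagt
mir-8186.1-5p: aCTGCTCAaaggactttgctgc
mir-8186.2-5p: aCTGCTCAaaggactttgctgc
The third set holds *mir-34*, a stress-responsive microRNA, and *mir-237*, which shares its seed with *lin-4*. Both had their nearest peak between 500 and 2000 bp away.
mir-34-5p: aGGCAGTGtggttagctggttg
mir-237-5p: tCCCTGAGaattctcgaacagct

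The windows of 201 bp around the peak centres show where the HRE cores lay. They are the forward strand of WBcel235 from RefSeq, with each ACGTG or GCGTG, on either strand, in capitals. Cores that overlap, as in CACGTG, were counted as 1 site. The first window, at chrX:13145330-13145530, belongs to the peak upstream of *mir-54*, *mir-55* and *mir-56*.
mir-54 peak: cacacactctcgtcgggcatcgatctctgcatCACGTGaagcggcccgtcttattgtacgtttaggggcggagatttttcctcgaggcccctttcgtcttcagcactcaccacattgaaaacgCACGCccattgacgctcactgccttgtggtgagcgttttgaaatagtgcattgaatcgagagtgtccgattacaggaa
The window of *mir-5549* is at chrIII:6972014-6972214. Its only core lies inside the hairpin, in the 5p arm printed above.
mir-5549 peak: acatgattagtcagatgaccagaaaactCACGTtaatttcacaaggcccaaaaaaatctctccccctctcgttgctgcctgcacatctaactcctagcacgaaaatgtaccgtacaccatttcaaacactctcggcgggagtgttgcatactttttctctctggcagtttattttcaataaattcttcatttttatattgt
The window beside the *mir-8186* pair is at chrII:18821-19021.
mir-8186.1 and mir-8186.2 peak: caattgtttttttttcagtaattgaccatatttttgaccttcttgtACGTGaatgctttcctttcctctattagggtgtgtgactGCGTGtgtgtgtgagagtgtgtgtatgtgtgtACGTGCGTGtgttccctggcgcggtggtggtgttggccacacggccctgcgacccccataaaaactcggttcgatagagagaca
The window of *mir-77* is at chrII:12518944-12519144.
mir-77 peak: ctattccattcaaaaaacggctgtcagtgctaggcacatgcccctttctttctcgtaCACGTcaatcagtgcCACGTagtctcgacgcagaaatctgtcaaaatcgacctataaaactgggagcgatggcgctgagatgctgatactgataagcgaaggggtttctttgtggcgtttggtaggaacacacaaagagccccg
The window of the closer *mir-4929* peak is at chrII:13462146-13462346.
mir-4929 peak: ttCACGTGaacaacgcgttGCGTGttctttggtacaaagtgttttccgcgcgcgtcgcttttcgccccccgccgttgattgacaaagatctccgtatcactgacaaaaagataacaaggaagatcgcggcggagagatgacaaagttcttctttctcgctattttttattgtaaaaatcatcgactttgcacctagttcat
The window upstream of *mir-34*, at chrX:2971570-2971770, held 4 cores in 3 sites.
mir-34 peak: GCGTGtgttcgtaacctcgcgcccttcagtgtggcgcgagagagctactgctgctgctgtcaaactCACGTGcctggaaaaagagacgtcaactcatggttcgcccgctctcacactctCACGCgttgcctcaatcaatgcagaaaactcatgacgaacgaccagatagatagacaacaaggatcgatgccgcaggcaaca

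Of the genes within 500 bp, *mir-5549* on chromosome III (6971976-6972085, minus strand) had the closest peak. Its centre lay 29 bp upstream of the hairpin and 139 bp upstream of *rfc-4*, a subunit of the clamp loader of DNA replication. The signal was 98.8, rank 174 of 604. The peak interval covered the whole hairpin of 110 bp, and the window held 1 core.

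The peak of *mir-51* on chromosome IV (11026013-11026112, minus strand) was centred 35 bp upstream of the gene, inside an exon of the noncoding RNA gene F36H1.17. It covered the whole hairpin, and its signal was 82.6, rank 255. Its window of 201 bp held no core. The nearest protein-coding start, that of *hrg-5*, was 3038 bp away.

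*mir-80* on chromosome III (8865270-8865367, minus strand) lies farther from protein-coding genes than any other gene of the 8. Its peak was centred 137 bp upstream and overlapped 86 bp of the hairpin, and the nearest protein-coding start, that of K01F9.2, was 11624 bp from the peak. The nearest other gene was the noncoding RNA K01F9.6, at 236 bp. The signal was 54.7, rank 597 of 604, which placed it among the weakest peaks of the list, and the window held no core.

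*mir-8186.1* and *mir-8186.2* overlap on opposite strands near the left end of chromosome II, at 18638-18698 and 18637-18697. They shared 1 peak with a signal of 73.0, rank 326. Its centre was 224 bp upstream of *mir-8186.2* and 283 bp downstream of the start of *mir-8186.1*, and 617 bp upstream of *gmeb-1*, which encodes a relative of the glucocorticoid modulatory element binding proteins. The window held 4 cores in 3 sites, the most of the 7 peaks.

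*mir-77* on chromosome II (12519268-12519367, plus strand) had a peak 224 bp upstream with a signal of 67.0, rank 377, and 2 cores. The peak stood closer to other genes than to *mir-77*. Its centre was 42 bp upstream of the snoRNA gene T21B4.20 and 185 bp upstream of *srh-70*, a member of a chemoreceptor family. Which of these genes the site belongs to was not tested.

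*mir-54* on chromosome X (13144996-13145094, minus strand) had the strongest of the 7 peaks, with a signal of 109, rank 139. The centre lay 336 bp upstream of the hairpin, in an intron of the protein-coding gene F09A5.3, within which *mir-54* runs on the opposite strand, and 159 bp upstream of the noncoding RNA F09A5.11. The window held 3 cores in 2 sites. The same peak was the nearest one of *mir-55*, at 506 bp just outside the limit, of *mir-55b* on the other strand at 600 bp and of *mir-56* at 643 bp.

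*mir-4929* on chromosome II (13461755-13461864, minus strand) was the only one of the 8 inside a protein-coding host on the same strand. Its peak, with a signal of 84.8 at rank 238, was centred 382 bp upstream of the hairpin in an intron of the host E01G4.3 and 201 bp upstream of a transcript start of that host. The window held 3 cores in 2 sites. A second peak lay 835 bp downstream of the hairpin start, 387 bp upstream of *pqn-27*, which encodes a protein with a glutamine- and asparagine-rich domain. That peak had a signal of 64.2, rank 423, and no core.

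Of the 8 genes, 7 had the peak upstream and 1 downstream, and for 6 of them no other kind of gene had its annotated start closer to the peak. The exceptions were *mir-77* and *mir-54*. When the start of any transcript is counted, *mir-4929* is an exception too, since the start in E01G4.3 at 201 bp was closer than the hairpin at 382 bp. The 8 genes were chosen for a peak close to their start, which favours such a count. No other biotype was counted in the same way, and which gene a site belongs to was not tested.

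**Figure D1:**
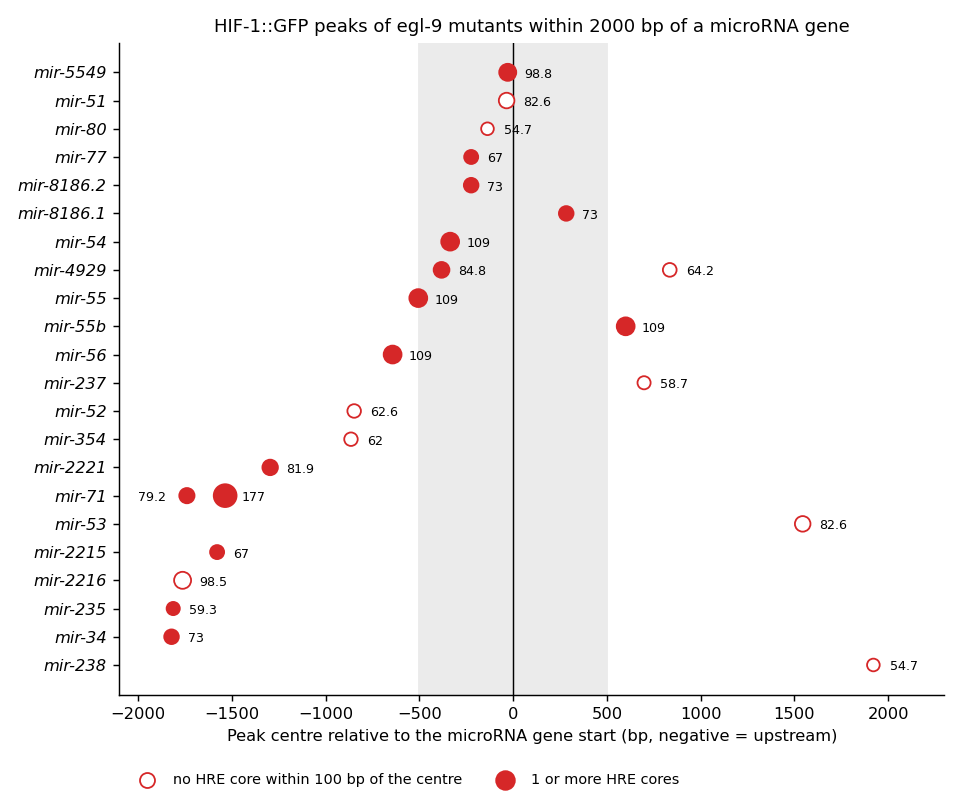
Position of each peak centre relative to the start of the microRNA gene (x axis, bp, negative upstream) for the 22 genes with a peak of *egl-9* mutants within 2000 bp (y axis). Circle area and the printed number give the signal, filled circles had an HRE core within 100 bp of the centre and open circles had none, and the grey band marks 500 bp. Genes that share 1 peak appear with the same signal, such as 109 for *mir-54*, *mir-55*, *mir-55b* and *mir-56*.

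Within 500 bp, 3.07% of microRNA genes had a peak in *egl-9* mutants (8 of 261, interval 1.56-5.93), against 1.35% of all nuclear genes. Protein-coding genes stood at 1.44% (288 of 19973, interval 1.29-1.62), so the intervals of both classes met. Within 2000 bp the microRNA share was 8.43% (22 of 261, interval 5.63-12.4), against 2.68% of all nuclear genes and 3.09% of protein-coding genes (interval 2.86-3.34), and these intervals were apart. Genes that neighbour each other share peaks, so the genes are not independent and no test was run. Among the 18 peaks within 2000 bp of a microRNA gene, 4 were the nearest peak of several, and these 4 accounted for 10 of the 22 genes.

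Other small RNA genes were near peaks more often than microRNA genes at 500 bp, with 11.6% of snoRNA genes (interval 8.61-15.4) and 9.31% of tRNA genes (interval 7.26-11.9). snRNA genes were at 6.98% (interval 3.71-12.7), which overlaps the microRNA interval. Noncoding RNA genes of biotype ncRNA, at 2.55%, were close to microRNA genes, and piRNA genes, at 0.169%, lay below the share of all genes. The piRNA genes are 15363 of the 46890 nuclear genes and stood at 0.989% within 2000 bp. They therefore lower the share of all nuclear genes at both distances.

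**Figure D2:**
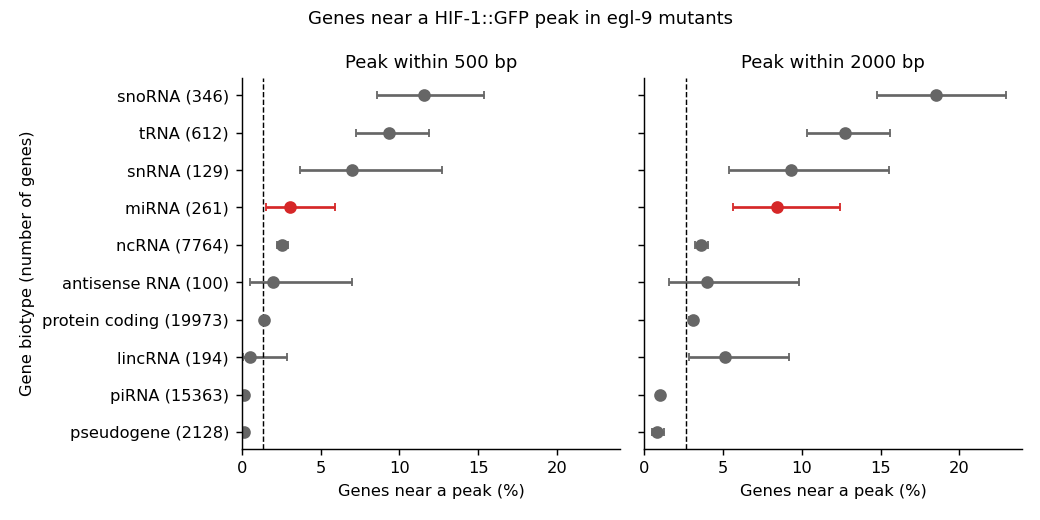
Share of genes of each biotype (y axis, number of genes in brackets) with a peak of *egl-9* mutants within 500 bp (left) or 2000 bp (right) of the gene start. Points are percentages, bars are Wilson 95% intervals and the dashed line is the share of all nuclear genes, 1.35% and 2.68%. The microRNA genes, in red, stood at 3.07% and 8.43%, below snoRNA and tRNA genes in both panels.

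The 14 genes with the nearest peak between 500 and 2000 bp include several with known roles. *mir-71*, which promotes long life and stress resistance, lies in an intron of *ppfr-1*, which encodes a regulatory subunit of protein phosphatase 4. It had peaks 1536 and 1740 bp upstream with signals of 177 (rank 58) and 79.2 (rank 281), each with 2 cores. A further peak, 2949 bp upstream and outside the limit, had a signal of 273, rank 16. All 3 lay in *ppfr-1* introns, and the noncoding RNA F16A11.13 started 161 bp from the strongest of the pair within the limit and 43 bp from the other. The centre of the peak at rank 16 was also in an exon of the antisense RNA *anr-20*, 11 bp from the start of the noncoding RNA F16A11.7. Another peak with *mir-71* as its nearest microRNA gene, 3164 bp away, had a signal of 224, rank 23.

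*mir-34* had an intergenic peak 1822 bp upstream with a signal of 73.0, rank 328. No gene of another kind started closer to this peak, since the nearest was *aakg-3*, a regulatory subunit of AMP-activated protein kinase, at 4778 bp. *mir-2221*, with a peak 1296 bp upstream (signal 81.9, 1 core), and *mir-2215*, with one 1579 bp upstream (signal 67.0, 1 core), were likewise the closest genes to intergenic peaks.

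For other genes the peak stood at a neighbour. The peaks of *mir-237* (698 bp, signal 58.7) and *mir-235* (1813 bp, signal 59.3) were centred inside tRNA genes. *mir-354* lies in *rps-20*, a gene of the small ribosomal subunit, and *mir-2216* in *gmps-1*, which encodes GMP synthetase. Their peaks, at 865 and 1763 bp with signals of 62.0 and 98.5, were centred 253 bp upstream of the *rps-20* start and 215 bp upstream of the *gmps-1* start. The *mir-354* peak was closer still, at 144 bp, to *ekl-4*. *mir-238*, at 1921 bp, and *mir-53*, at 1544 bp, had no peak of their own, because their nearest peaks were those of *mir-80* and *mir-51*.

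Just outside 2000 bp lay *mir-259* (2117 bp, signal 76.7), *mir-84* of the *let-7* family (2311 bp, signal 64.3) and *mir-230* (2603 bp, signal 85.7). The last of these peaks was centred 7 bp from a tRNA gene.

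All 239 remaining genes were farther away. Of the 261, 12 had the nearest peak between 2000 and 5000 bp, 28 between 5000 and 10000 bp, 80 between 10000 and 50000 bp, 44 between 50000 and 100000 bp and 75 beyond that, and the median distance was 41941 bp. Among well-studied genes, the nearest peak was 57226 bp from *lin-4*, 36923 bp from *let-7*, 110224 bp from *lsy-6*, which sets the left-right identity of a taste neuron, and 84841 bp from the neuronal *mir-124*. It was 8557 bp from the muscle microRNA *mir-1*, 7911 bp from *mir-35*, 61505 bp from *mir-58.1* and 29210 bp from *mir-228*. The *let-7* relatives *mir-48* and *mir-241* were 164159 and 165933 bp from a peak.

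By chromosome, the genes within 500 bp were on II (4 of 49), III (2 of 27), IV (1 of 50) and X (1 of 74), with none of the 33 on chromosome I and none of the 28 on V. Within 2000 bp the counts were 3 on I, 6 on II, 3 on III, 3 on IV, none on V and 7 on X. Chromosome V held 90 of the 604 peaks.

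Of the 16 seed groups with 3 or more genes, 4 had a gene within 2000 bp and 12 had none. Seeds of both arms were used, so a gene can be in more than 1 group and the groups are not separate families. For example, *mir-2217.3*, *mir-2217.4* and *mir-2217.5* are in the groups of both *mir-2217.1* and *mir-2217.2*. All 6 genes of the *mir-51* group were within 2000 bp, 2 of them within 500 bp, but they rest on 3 peaks, with signals of 109, 82.6 and 62.6. The last of these was 848 bp upstream of *mir-52* on chromosome IV, in an exon of the noncoding RNA Y37A1B.337, ranked 443 and held no core. This group was singled out after its values were seen. In the group of *mir-80*, with *mir-81*, *mir-82*, *mir-58.2*, *mir-58c* and *mir-2209.1*, only *mir-80* was within 2000 bp. The groups of *mir-34* and *mir-238*, each with 3 genes, likewise had 1 such gene. None of the 8 genes of the *mir-35* group and none of the 5 of the *let-7* group was within 2000 bp, the closest being 7211 and 2311 bp away.

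The peaks near microRNA genes were of middle strength. The signals of the 7 peaks within 500 bp were 109, 98.8, 84.8, 82.6, 73.0, 67.0 and 54.7, with a median of 82.6 against 76.7 for the other 597 peaks. Of the 7, 4 ranked above the median of the list and none was among the 100 strongest. For the 18 peaks within 2000 bp the median was 73.0 against 76.8 for the others, and 1 of them, the *mir-71* peak at rank 58, was among the 100 strongest.

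**Figure D3:**
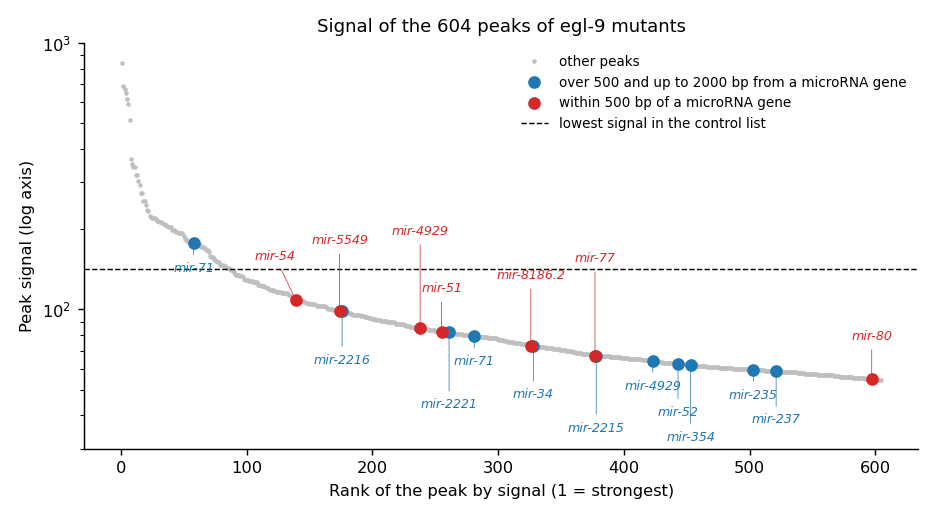
Signal (y axis, log scale) against rank (x axis) for the 604 peaks of *egl-9* mutants. Red points are the 7 peaks within 500 bp of a microRNA gene and blue points those beyond 500 and up to 2000 bp away, each named by the nearest microRNA gene. The dashed line is the lowest signal in the control list, 141, and all 7 red points lie below it.

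HRE cores were about as frequent in these peaks as in others. A core stood within 100 bp of the centre in 5 of the 7 peaks within 500 bp (71.4%, interval 35.9-91.8) and in 404 of the other 597 (67.7%, interval 63.8-71.3). Windows of the same length held a core at 30.1% of protein-coding gene starts and at 23.8% of microRNA gene starts. All 5 peaks with a core held ACGTG, which 43.9% of the other peaks held, and the interval for the 5 of 7 (35.9-91.8) includes that share. The peaks of *mir-51* and *mir-80* were those without a core.

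Within 2000 bp, 11 of 18 peaks held a core (61.1%, interval 38.6-79.7) against 67.9% of the other 586. The palindrome CACGTG, looked for after the windows had been seen, was in the peaks of *mir-54*, *mir-4929* and *mir-34*. That is 3 of 18 (16.7%, interval 5.84-39.2) against 84 of 586 other peaks (14.3%) and 4.40% of protein-coding gene starts. GAGAGA, a repeat found at many *C. elegans* promoters and searched on both strands, was in 4 of the 7 peaks within 500 bp (57.1%, interval 25.0-84.2) and in 40.7% of the others. The median GC content of the windows was 48.8% against 45.3%.

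The neighbourhoods of the 8 genes with a peak and the 253 without one were then compared. The HRE cores near the start are partly set by the choice of genes, since for *mir-5549*, *mir-8186.1*, *mir-8186.2*, *mir-77*, *mir-54* and *mir-4929* the cores of the peak window itself lie within 500 bp of the start. The following core counts are therefore a description of the chosen genes. Every one of the 8 had an HRE core within 500 bp of its start (interval 67.6-100.0), with a median of 3.5 cores, against 192 of 253 (75.9%, interval 70.3-80.7) with a median of 1 core. For *mir-51* and *mir-80* that was 1 core each, outside the window of 201 bp at the peak. The overlapping genes *mir-8186.1* and *mir-8186.2*, with 8 cores each, share 1 peak and entered all values for the 8 genes separately. A protein-coding start lay within 500 bp of 3 of the 8 (37.5%, interval 13.7-69.4) and of 46 of the 253 (18.2%, interval 13.9-23.4). The host share ran the other way, with 1 of 8 (12.5%, interval 2.24-47.1) inside a protein-coding gene on the same strand against 73 of 253 (28.9%, interval 23.6-34.7). On chromosome X were 1 of the 8 and 73 of the 253, and clustered with another microRNA gene on the same strand were 1 of the 8 and 51 of the 253 (20.2%). Median GC content within 500 bp of the start was 38.5% and 36.7%. The intervals overlapped for every share compared. With 8 genes they are wide, and overlap of intervals is not a test, so a difference between the groups was neither shown nor excluded.

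With the limit at 2000 bp the groups were closer, with a core within 500 bp of the start in 86.4% of 22 genes (interval 66.7-95.3) and 75.7% of 239, a protein-coding host in 22.7% and 28.9%, and chromosome X in 31.8% and 28.0%.

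**Figure D4:**
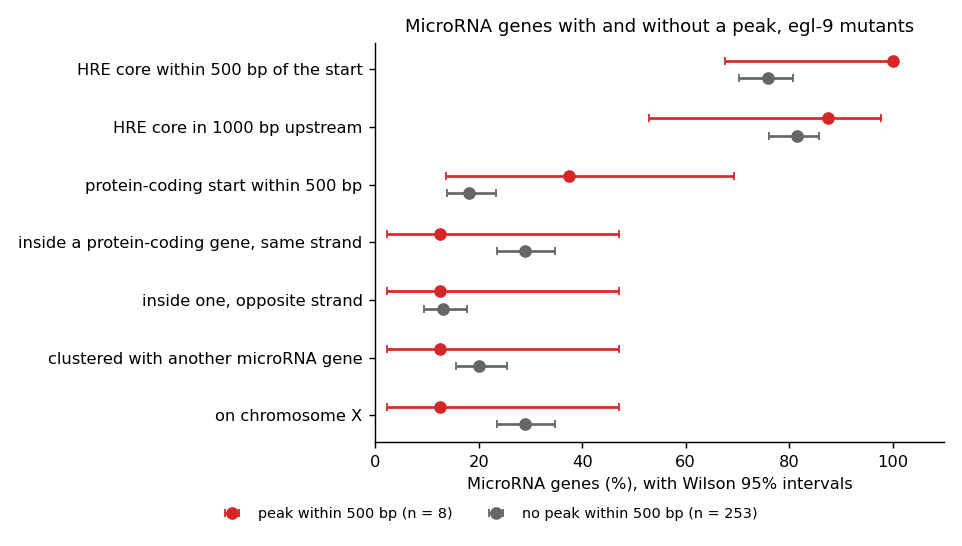
Share of microRNA genes (x axis, %) with each feature (y axis), for the 8 genes with a peak of *egl-9* mutants within 500 bp (red) and the 253 without one (grey). Points are percentages and bars Wilson 95% intervals. For every feature the bars of the groups overlap, including the HRE core within 500 bp of the start, at 100.0% and 75.9%.

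In the control strain, where EGL-9 is present, 0 of 261 microRNA genes had a peak within 500 bp, which allows a share of up to 1.45%, against 0.109% of all nuclear genes. Within 2000 bp the count was also 0, against 0.279% of all nuclear genes. The closest control peak was 7217 bp from *mir-359*, and the median distance was 455796 bp. None of the 7 peaks within 500 bp of a microRNA gene in *egl-9* mutants overlapped a control peak, and 61 of the other 597 did (10.2%). All 7 had signals below the lowest in the control list, and signals were not scaled between genotypes, so absence of binding and binding below the limit of the control list cannot be told apart. *mir-34* was 27226 bp from a control peak and 1822 bp from one in *egl-9* mutants.

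A list of 22 genes was also examined, of which 21 were found by name. It holds genes that make or load microRNAs or act in silencing and RNA decay, and genes of RNA interference (*rde-1*, *rde-4*). It also holds *lin-14*, *lin-28*, *lin-29*, *lin-41* and *hbl-1*, listed as regulators of developmental timing rather than as core microRNA machinery. None of the 21 had a peak within 500 bp of any transcript start in *egl-9* mutants, where 1.62% of protein-coding genes did. Within 2000 bp 2 of the 21 had one, where 3.33% of protein-coding genes did. The peak 841 bp upstream of *nhl-2*, which encodes a TRIM-NHL cofactor of the microRNA silencing complex, had a signal of 235, rank 21, and 2 cores, and its centre lay in an exon of the noncoding RNA F26F4.14, with *tag-340* as the nearest protein-coding gene. The intergenic peak 972 bp upstream of *ain-1*, which encodes a GW182-type partner of the microRNA Argonautes, had a signal of 102, rank 164, and 2 cores, and *ain-1* was its nearest protein-coding gene. *drsh-1*, which encodes Drosha, was 2961 bp from its nearest peak. The microRNA Argonaute genes *alg-1* and *alg-2* were 18276 and 446448 bp away and *dcr-1*, which encodes Dicer, was 36287 bp away. None of the 21 had a control peak within 2000 bp.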

How the data were processed

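HIF-1::GFP ChIP-seq of L4 larvae was analysed from the 2 peak lists deposited by the authors, 1 per genotype. Per the study's methods and the submitters' processing notes, reads were aligned with BWA (version not given in the sources used here) to WBcel235, peaks were called with SPP against input, and those reproducible between 2 replicates were kept. The deposited signal column, made by the authors with SPP, is not scaled between genotypes, and whether it is the enrichment described in the methods is not known, so it was used for ranks and medians within a list. Other values in the lists were the positions. Mitochondrial peaks (19 in *egl-9* mutants, 18 in the control strain) were left out.

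Distances run from the peak centre to the 5′ end of the gene (Ensembl release 115). Starts were read as 0-based and are printed 1-based. MicroRNA names follow RefSeq where coordinates matched (257 of 261 genes), otherwise Ensembl. Of the egl-9 peaks, 557 are 444 bp wide, and the summit differed from the centre in 47. HRE cores were searched on both strands within 100 bp of the centre. Clusters are genes on 1 strand at most 1000 bp apart. The functions recovered all 200 distances and motifs planted in simulated sequence. Python 3.11.15, numpy 2.4.6 and pandas 2.3.3 were used. The members, the gene lists and the genes to name (all with a peak within 2000 bp, those just outside, seed sharers and a set of well-studied genes) were chosen with earlier results of these data known. The share of all nuclear genes stands beside the counts over the 261 genes, and no test was run, because each genotype has 1 list. Alternatives were other distances, anchors, peak subsets and motif windows.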

Additional observations from a re-analysis of the deposited data

How the results depend on the processing

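No paired analysis was possible because each genotype has 1 peak list and no values per replicate, and for the same reason no replicate could be left out. The number of microRNA genes near a peak in *egl-9* mutants depended on the distance, with 8 within 500 bp, 14 within 1000 bp and 22 within 2000 bp. It fell to 3 when the peak interval had to overlap the hairpin, to 4 among peaks above the median signal and to 0 among peaks reaching the lowest control signal. It was 7 without peaks near tRNA, snoRNA or snRNA genes, and 8 with the summit, any transcript start or clusters counted once. Clusters were formed within a strand, so *mir-8186.1* and *mir-8186.2*, which share a peak from opposite strands, were still counted separately. The control count was 0 under every setting run. The share of other peaks with an HRE core was 43.9% with ACGTG alone, 78.6% within 200 bp and 79.7% over the whole interval, where the share of the 7 peaks was 71.4%, 85.7% and 85.7%. The share of microRNA genes without a peak that had a core was 81.4% over 1000 bp upstream and 62.1% with ACGTG alone, and for the 8 genes with one it was 87.5% and 75.0%. Medians of signal moved by less than 1.5 times. With 7 peaks and 8 genes, intervals of shares are wide.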
